A study of Rattus norvegicus with 16 samples.

Results

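The genes described here are those of the constitutive proteasome on 16 microarrays of rat lung RNA. They were taken by name: every probe set whose single platform gene symbol began with Psma, Psmb, Psmc or Psmd and a digit, without the 3 interferon-inducible catalytic subunits Psmb8, Psmb9 and Psmb10. The rule itself uses names and no measured value. It gave 32 probe sets of 31 genes, out of 12783 probe sets of 10411 genes with 1 symbol. Of the 31 genes, 27 encode proteasome subunits: 7 of the alpha ring (Psma1 to Psma7), 6 of the beta ring (Psmb1 to Psmb5 and Psmb7), 5 ATPases of the base (Psmc1 to Psmc5), 3 other subunits of the base (Psmd1, Psmd2 and Psmd4) and 6 of the lid (Psmd3, Psmd6, Psmd7, Psmd8, Psmd11 and Psmd13). Psmd5, Psmd9 and Psmd10 encode chaperones that help to build the base and are absent from the finished particle. Psmc3ip was taken by its letters only, since it encodes a recombination factor and no proteasome subunit. Psmd11 had 2 probe sets, called here the brighter and the dimmer. A probe set for Psmb6 carried several symbols and was not a member. The rule gave no probe set for Psmc6, Psmd12 or Psmd14, so the base and the lid are not covered in full.

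The study exposed rats of 2 strains to sulfur dioxide (SO2) or to air. Spontaneously hypertensive (SH) rats are an inbred strain with inherited high blood pressure, and Sprague Dawley (SD) rats are an outbred stock in wide laboratory use. There were 4 groups of 4 biological replicates, SH air, SH SO2, SD air and SD SO2, with 1 array per replicate. SO2 is an irritant gas of the airways, and the series presents the SH rat as a model of the airway disease it causes. The labels do not state the concentration, the length of the exposure or the age and sex of the rats.

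The proteasome is the barrel-shaped protease that degrades proteins tagged with ubiquitin, and every nucleated cell needs it. In the core particle, outer rings of alpha subunits gate the entry and inner rings of beta subunits carry the proteolytic sites. The regulatory particle caps the barrel: the ATPases of its base unfold substrates and thread them into the core, while the lid takes part in removing ubiquitin. When proteasomes are inhibited or damaged, the transcription factor Nrf1 (gene Nfe2l1) is known to raise the mRNAs of the subunits together, and the oxidant-responsive factor Nrf2 (gene Nfe2l2) can raise some of them. Whole lung holds many cell types, so that in these data a smaller number of cells and less RNA per cell cannot be told apart.

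The deposited values were signals on a linear scale, 1 per probe set and array, with array medians between 250.2 and 281.8. Arrays of 1 group correlated at 0.94 to 0.97 (Pearson, log2 scale) over all 15866 probe sets other than controls, and arrays of different groups at 0.93 to 0.97. The ratio of the 3′ to the 5′ actin control probes, a sign of RNA integrity, lay between 1.29 and 3.12 and was highest on SH SO2 replicate 1. The lung markers Sftpc and Scgb1a1, of alveolar type II and airway club cells, were bright in every group, with lowest signals of 24003.9 and 22863.3. The array labelled SD air replicate 2 stood apart from its group at Terf2ip, a telomere protein gene that separated the strains elsewhere. It read 693.8 there. The range was 1982.2 to 2363.4 for the rest of its group and 424.8 to 733.2 for SH air. Where a gene was among the 3 of smallest p in a comparison that uses the SD air group, its difference is also given without that array; none of these changed direction or was called.

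Promoter sequences of these genes were searched for the letters of known control elements. RefSeq promoters on rat build GRCr8 were matched for 29 of the 31 genes, Psma7 and Psmd6 having no entry. Each window runs from 250 bases before to 50 bases after the annotated start, and motifs were searched on both strands. The CCAAT box (CCAAT), bound by the factor NF-Y, was present in 17 of 29 members (58.6%) and in 37.5% of all 33469 promoters. The Sp1 box (GGGCGG) was present in 20 of 29 (69%) against 33.1% of all promoters. The core of the antioxidant response element (TGACNNNGC), which Nrf1 and Nrf2 bind, was present in 6 of 29 (20.7%) against 12.1%; the 6 were Psma3, Psmb2, Psmb5, Psmd1, Psmd3 and Psmd9. A match describes these letters only and is no evidence of binding. The 250 bases before the start are printed for Psmc5, which had the smallest unadjusted p of the members in SH rats, and for Psmb2, Psma6 and Psmb3, the 3 members that varied most closely with the rest, a choice made after the values were seen. Capitals mark the matched motifs on either strand, and all 4 genes lie on the plus strand.
Psmc5: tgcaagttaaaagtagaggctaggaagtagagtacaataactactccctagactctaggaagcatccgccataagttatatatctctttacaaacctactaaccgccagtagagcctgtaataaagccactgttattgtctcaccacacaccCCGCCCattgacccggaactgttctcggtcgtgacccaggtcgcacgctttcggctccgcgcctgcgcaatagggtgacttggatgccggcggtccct
Psmb2: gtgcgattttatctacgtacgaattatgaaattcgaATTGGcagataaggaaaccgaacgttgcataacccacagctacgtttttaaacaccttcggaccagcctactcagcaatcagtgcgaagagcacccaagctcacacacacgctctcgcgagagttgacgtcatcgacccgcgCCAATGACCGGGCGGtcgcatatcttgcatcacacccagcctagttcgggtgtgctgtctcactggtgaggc
Psma6: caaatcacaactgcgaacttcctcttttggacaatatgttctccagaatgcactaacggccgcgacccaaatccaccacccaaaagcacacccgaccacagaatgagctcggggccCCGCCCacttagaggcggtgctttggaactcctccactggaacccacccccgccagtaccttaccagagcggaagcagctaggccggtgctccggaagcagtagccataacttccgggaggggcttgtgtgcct
Psmb3: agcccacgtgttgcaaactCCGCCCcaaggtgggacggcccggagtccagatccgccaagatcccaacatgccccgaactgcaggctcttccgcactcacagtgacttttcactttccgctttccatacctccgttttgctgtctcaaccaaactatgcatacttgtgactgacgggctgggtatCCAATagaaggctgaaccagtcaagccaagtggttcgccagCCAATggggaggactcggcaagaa

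The Psmc5 window, chr10:91687303-91687552, holds a single Sp1 box on the opposite strand, 98 to 93 bases before the start, and neither of the other motifs. The Psmb2 window, chr5:144254808-144255057, holds all of them. Its antioxidant response element core, 68 to 60 bases before the start, shares bases with a CCAAT box and with an Sp1 box. The Psmb3 window, chr10:83193537-83193786, has CCAAT boxes ending 61 and 20 bases before the start. The Psma6 window, chr6:78514097-78514346, has 1 Sp1 box. The windows of Psmc5, Psmb2 and Psmb3 lie just before the annotated gene, and that of Psma6 lies inside it, before the start of a transcript.

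In SO2-exposed SH rats, no proteasome gene was called different from air. Of the 32 probe sets, 22 lay below their air mean and 10 above it, with a median difference of -0.056 on the log2 scale, against a median of 0.017 over all 11106 probe sets tested. Values are differences of log2(intensity + 16), and called means an adjusted p under 0.05 in limma, a linear model with a moderated estimate of the spread. The adjustment was Benjamini-Hochberg over all probe sets tested. The share called over the whole array was 0%, so the count for the proteasome is the same as the background. At an unadjusted p under 0.05, limma gave 2 of the 32 members, both lower, against 537 probe sets or 4.84% of the array. The smallest adjusted p of a member in limma was 0.585.

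In SO2-exposed SD rats, limma also called 0 members, where 0% of the array was called. Here 17 members lay above their air mean and 15 below, with a median difference of 0.0061 against 0.017 over the array. At an unadjusted p under 0.05 there was 1 of 32 members, lower, against 915 probe sets or 8.24% of the array. The smallest adjusted p of a member in limma was 0.502. The difference between the strains' SO2 effects gave 0 members called by limma, with 0% of the array called. At an unadjusted p under 0.05 it gave 2 of 32 members, against 516 probe sets or 4.65% of the array. Averaged over the strains, the SO2 effect again gave 0 members called by limma with 0% of the array called, and a median of -0.035. At an unadjusted p under 0.05 it gave 2 of 32 members, against 939 probe sets or 8.45% of the array.

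The data were precise enough to bound these differences for most subunits. In SH rats, the 95% confidence interval of the SO2 effect lay within 1.5-fold in either direction, 0.585 on the log2 scale, for 31 of the 32 probe sets, and for 63.2% of all probe sets tested. The exception was Psmc5. In SD rats it did so for 30 of 32 probe sets, the exceptions being Psma3 and Psmd10, against 60.1% of the array. For the difference between the strains it did so for 19 of 32, against 31% of the array. Averaged over the strains, all 32 intervals of the SO2 effect lay within 1.5-fold, as did 84.9% of those over the array.

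**Figure D1:**
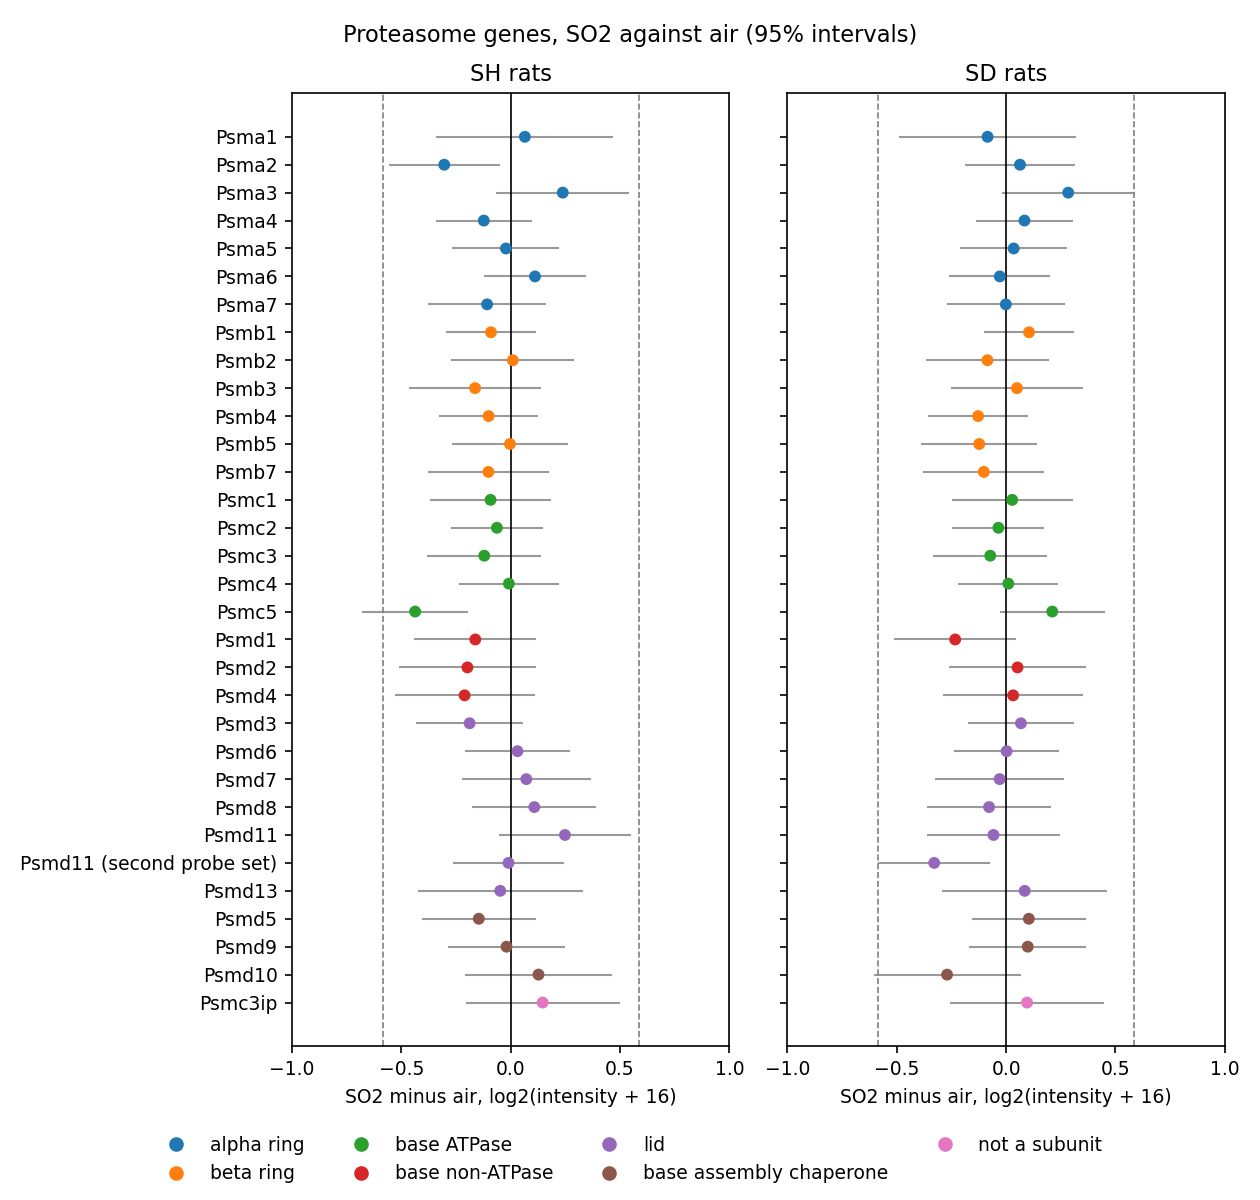
Difference between SO2 and air for each of the 32 proteasome probe sets in SH rats (left) and SD rats (right), on the log2(intensity + 16) scale; points are fitted differences, bars are 95% confidence intervals from limma, colours give the part of the proteasome and dashed lines mark 1.5-fold. In SH rats only the interval of Psmc5 reaches past a dashed line, and in SD rats those of Psma3 and Psmd10 do.

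Psmc5 encodes 1 of the ATPases of the base, the ring that pulls substrates into the core. It had the smallest unadjusted p of all members in SH rats and for the difference between the strains. The SH air arrays read 938.1, 1014.3, 975.5 and 1029.1, and the SH SO2 arrays read 634.5, 657.8, 757.3 and 878.3. The SD air arrays read 786.5, 840.1, 775.9 and 693.3, and the SD SO2 arrays read 855, 840.5, 963.4 and 930.8. Every SH SO2 array was thus below every SH air array, while every SD SO2 array was above every SD air array, in SD rats with a gap of less than 1 unit between 840.1 and 840.5. The SH means were 989.2 ± 40.9 in air and 732 ± 111 in SO2, and the SD means 774 ± 60.7 in air and 897.4 ± 59.2 in SO2 (SD, n = 4 each).

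The SO2 effect on Psmc5 in SH rats was -0.44 on the log2 scale (SE 0.115, 95% interval -0.68 to -0.20), with an unadjusted p of 0.00118 and an adjusted p of 0.585 in limma. In SD rats it was 0.21 (SE 0.115, interval -0.03 to 0.45), with an adjusted p of 0.665 in limma. The difference between these effects was -0.65 (SE 0.163, interval -0.99 to -0.31), with an unadjusted p of 0.000776 and an adjusted p of 0.959 in limma. It did not pass, and it ranked 7 of 11106 by its unadjusted p. When the array labelled SD air replicate 2 was left out, the effect in SD rats was 0.25 (adjusted p 0.614 in limma) and the difference between strains -0.69 (adjusted p 0.793 in limma). Over all 29 alternative settings the difference between strains stayed between -0.74 and -0.58, with adjusted p in limma between 0.373 and 1.

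Psmc5 was the 1 member whose SO2 and air arrays did not overlap in either strain and lay in opposite directions; this held for 6 probe sets of the array, or 0.054%. In SH rats alone, 2 members had groups that did not overlap, Psmc5 and Psmd3, both lower in SO2, where 4.17% of the array had such groups. Psmd3, a scaffold subunit of the lid, differed by -0.19 (SE 0.116, adjusted p 0.949 in limma), with SH air arrays between 618.5 and 665.7 and SH SO2 arrays between 527.5 and 593.9. In SD rats 3 of 32 members did not overlap, against 3.54% of the array: Psmc5 higher in SO2, and Psmd10 and the dimmer probe set of Psmd11 lower. These counts of 2 and 3 genes are too small to be set apart from the background.

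Levels of cell-type markers are given beside those of Psmc5; limma called none of them for SO2 against air in either strain. In SH rats all 4 of 4 macrophage markers tested (Gpnmb, Fabp5, Cd68 and Cd14) lay below 0 for SO2 against air, from -0.563 to -0.012. Cd14 lay nearest 0, with mean signals of 845.2 in air and 857.6 in SO2. The summed signal of the 4 markers was 9439 to 12330 on the SH air arrays and 7070 to 8974 on the SH SO2 arrays, which did not overlap. Gpnmb was the largest part of this sum, with means of 5748 in air and 3897 in SO2. For single probe sets, 4.17% of the array did not overlap in SH rats, and no such share is given here for sums. In SD rats the macrophage sums overlapped, at 6191 to 11210 in air and 7306 to 9708 in SO2. In SD rats 8 of 8 markers of T and natural killer cells lay above 0, with summed signals of 2395 to 3610 in air and 2413 to 4521 in SO2, and 7 of 7 heart and skeletal muscle markers lay below 0, at 2430 to 5088 and 1636 to 2951. In SH rats 3 of 3 red cell markers lay below 0, with sums of 8878 to 12200 in air and 6792 to 9812 in SO2, and 3 of 3 adipocyte markers above 0, at 647.5 to 827.2 and 786.3 to 1253. Markers of lung epithelium, endothelium and neutrophils lay on both sides of 0 in each strain. The counts are of markers tested, but the sums cover every listed marker on the array, also those removed as dim. They took in 10 markers of T and natural killer cells, 9 of muscle and 5 of adipocytes. The part of these cells in the Psmc5 values was not tested.

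**Figure D2:**
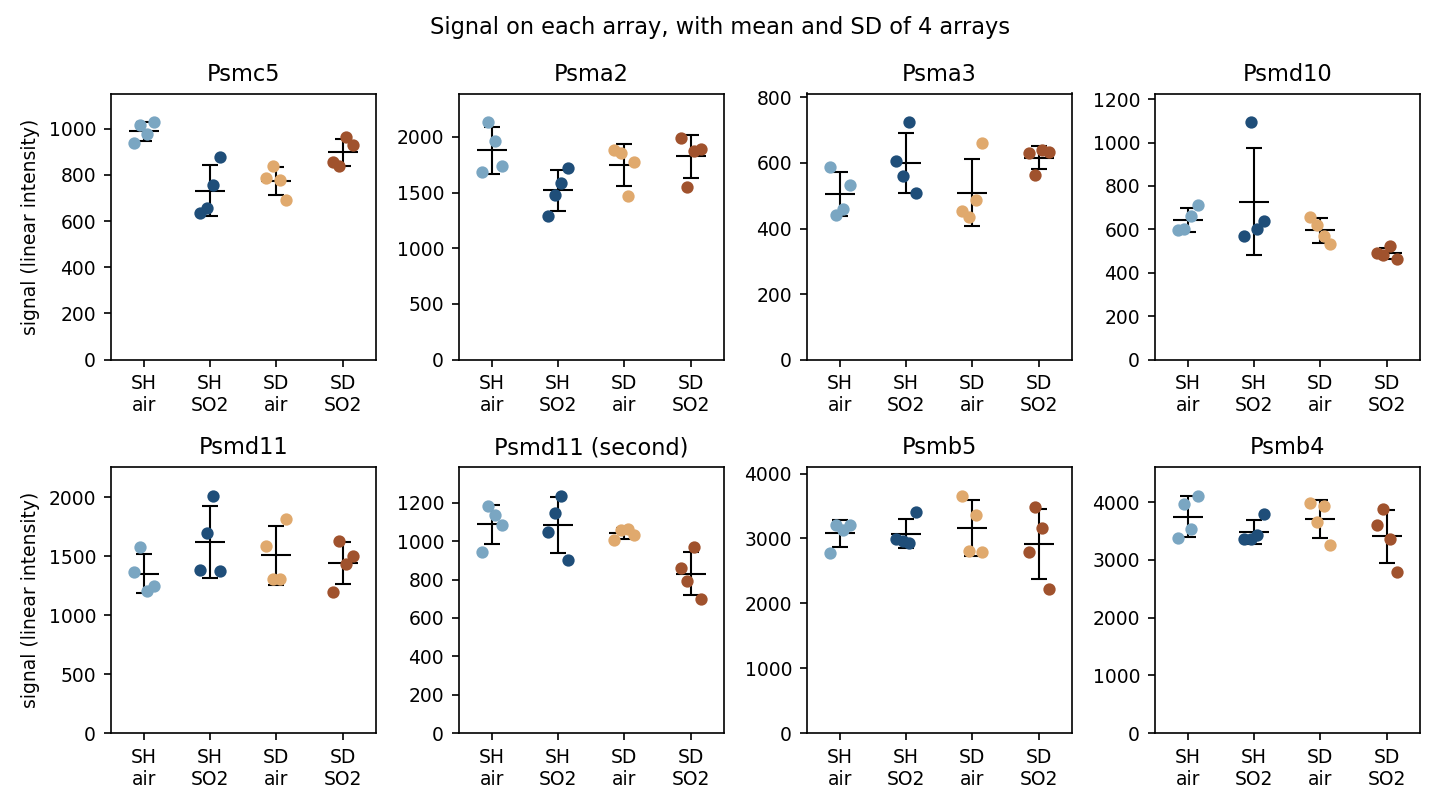
Signal on a linear scale of 7 proteasome genes, Psmd11 with both its probe sets (the dimmer is marked second), on each of the 4 arrays of SH air, SH SO2, SD air and SD SO2; each point is an array, long bars are means and short bars are 1 SD (n = 4). Psmc5 lies lower in SO2 in SH rats and higher in SD rats without overlap, and the SH SO2 mean of Psmd10 is raised by a single array at 1094.5.

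The alpha ring showed no shared direction under SO2. In SH rats 3 of 7 genes lay above 0 and 4 below (range -0.30 to 0.24), and in SD rats 4 lay above and 3 below (range -0.085 to 0.28). Psma2 had the second smallest p of the members in SH rats. Its SH air arrays read 1682.4, 2134.5, 1965 and 1736.9 and its SH SO2 arrays 1291.1, 1481, 1587 and 1722.7. The SD arrays read 1883.7, 1855.9, 1469 and 1778.7 in air and 1991.8, 1547.9, 1873.4 and 1889.1 in SO2. One SH SO2 array reached into the air range, and the SD groups overlapped widely. The effect was -0.30 in SH rats (SE 0.121, unadjusted p 0.0213, adjusted p 0.949 in limma) and 0.064 in SD rats (adjusted p 0.929 in limma). The difference between the strains' effects was -0.37 (SE 0.172, adjusted p 0.981 in limma).

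Psma3, another alpha subunit, lay above its air mean in SO2 in both strains. Its arrays read 587.5, 441.6, 459.9 and 531.9 in SH air and 606.2, 559.2, 724.8 and 509.7 in SH SO2. They read 454.4, 435, 487.9 and 660 in SD air and 630.4, 563.6, 638.1 and 631.9 in SD SO2. The groups overlapped in both strains, in SD rats through a single high air array, SD air replicate 4. The SO2 effect averaged over strains was 0.26 (SE 0.103, unadjusted p 0.0199, adjusted p 0.504 in limma), with 0.24 in SH rats and 0.28 in SD rats. With the array labelled SD air replicate 2 left out, the average was 0.23 (adjusted p 0.625 in limma) and the SD effect 0.22.

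The beta ring carries the proteolytic sites, of which Psmb5 and Psmb7 encode the chymotrypsin-like and the trypsin-like subunit. For SO2 against air 5 of 6 beta genes lay below 0 in SH rats (range -0.16 to 0.0096) and 4 of 6 in SD rats (range -0.13 to 0.10), and limma called none. Psmb5 had means of 3079 ± 205 and 3072 ± 227 in air and SO2 in SH rats, and of 3156 ± 430 and 2916 ± 541 in SD rats (SD, n = 4 each). Its SO2 effect was -0.0036 in SH rats, with a 95% interval from -0.27 to 0.26, and -0.12 in SD rats, from -0.39 to 0.14. For Psmb7 the effect was -0.10 in both strains, with intervals from -0.38 to 0.17 and from -0.38 to 0.18. No difference beyond the spread between replicates was found for these catalytic subunits, and a difference of 1.5-fold lay outside each interval.

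Psmb4, a structural subunit of the beta ring, came next by p for the SO2 effect averaged over strains after Psma3, Psmd1 and the dimmer probe set of Psmd11. Its arrays read 3381, 3977.8, 3528 and 4116.2 in SH air and 3354.9, 3368.3, 3437.5 and 3795.9 in SH SO2. They read 3979.9, 3658.3, 3933.6 and 3267.5 in SD air and 3597.9, 3876.7, 3359.4 and 2795.6 in SD SO2. The groups overlapped in both strains, and the lowest value of all was SD SO2 replicate 4. The averaged effect was -0.11 (SE 0.0772, adjusted p 0.702 in limma), -0.069 without SD SO2 replicate 4, and -0.061 after quantile normalization.

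All members that encode subunits of the base lay on 1 side of 0 in SH rats. The 5 ATPases were below 0 in SO2, from -0.44 (Psmc5) to -0.0084, with a median of -0.092. The 3 other base subunits, Psmd1, Psmd2 and Psmd4, also lay below 0, from -0.21 to -0.16. None of these 8 genes was called by limma, and in SD rats 3 of the 5 ATPases and 2 of the 3 others lay above 0. Averaged within each array, the deviations of the 3 non-ATPase genes from their means were 0.058 to 0.135 on the SH air arrays and -0.18 to 0.017 on the SH SO2 arrays. These ranges do not overlap, but members share each array, so that the genes do not count as replicates. For single probe sets, 4.17% of the array did not overlap in SH rats. No such share is given here for means of 3 genes, nor for 8 genes on 1 side of 0.

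Psmd4, which encodes the ubiquitin receptor Rpn10, had means of 824 ± 18.5 and 717.8 ± 122 in air and SO2 in SH rats, and of 771.2 ± 172 and 773.9 ± 50.8 in SD rats (SD, n = 4 each). Its SO2 effect was -0.21 in SH rats (SE 0.153, adjusted p 0.949 in limma) and 0.032 in SD rats (adjusted p 0.97 in limma). Psmd1, one of the large scaffold subunits, read 456.1, 495.8, 484.1 and 469.8 in SH air and 469.4, 368.9, 424.6 and 438.8 in SH SO2. It read 499, 430.5, 654.8 and 462.5 in SD air and 420.1, 431.6, 471.4 and 390.7 in SD SO2. The SD air mean rested in part on 1 high array, and the groups overlapped in both strains. The averaged effect was -0.20 (SE 0.0941, unadjusted p 0.0492, adjusted p 0.589 in limma). In SD rats it was -0.23 (adjusted p 0.673 in limma), -0.11 without SD air replicate 3 and -0.31 without the array labelled SD air replicate 2, whose removal gave an averaged effect of -0.235.

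In the lid, 4 of 6 genes lay above 0 in SH rats and 3 of 6 in SD rats, by their brighter probe set. The 2 probe sets of Psmd11, a scaffold subunit of the lid, did not give the same picture. The brighter probe set read 1367.4, 1575.3, 1205.6 and 1250.1 in SH air and 1385.2, 1696.6, 2014.9 and 1372.3 in SH SO2, a difference of 0.25 (SE 0.145, adjusted p 0.949 in limma) that was 0.14 without SH SO2 replicate 3. In SD rats this probe set read 1590.1, 1307.8, 1309.3 and 1819.4 in air and 1201, 1629, 1436.7 and 1499 in SO2, a difference of -0.058. Its groups overlapped in both strains. The dimmer probe set read 943.3, 1181.1, 1137.8 and 1085.2 in SH air and 1045.3, 1148, 1237.8 and 900.1 in SH SO2, which overlap, a difference of -0.010. In SD rats it read 1007, 1058.4, 1063.9 and 1031.4 in air and 857.7, 793.8, 967.6 and 700.6 in SO2, which do not overlap. That difference was -0.33 (SE 0.122, unadjusted p 0.0141, adjusted p 0.502 in limma), the smallest unadjusted p of any member in SD rats; it was -0.32 with the array labelled SD air replicate 2 left out. Averaged over strains it was -0.17 (SE 0.0863, adjusted p 0.605 in limma). With the probe sets averaged, the SH difference was 0.12.

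Psmd10 encodes gankyrin, a chaperone that holds base ATPases during assembly. It read 597.2, 600.3, 659.6 and 712.9 in SH air and 571.6, 1094.5, 601.5 and 640.5 in SH SO2. It read 659, 621, 569.2 and 531.8 in SD air and 490, 481.8, 523.4 and 464.3 in SD SO2. In SD rats every SO2 array lay below every air array, and in SH rats SH SO2 replicate 2 stood far above the rest. The SO2 effect was 0.13 in SH rats and -0.27 in SD rats (adjusted p 0.967 and 0.687 in limma). The difference between these effects was 0.40 (SE 0.227, adjusted p 0.981 in limma), and 0.19 without SH SO2 replicate 2. The other chaperones, Psmd5 and Psmd9, differed by -0.15 and -0.019 in SH rats and by 0.10 and 0.099 in SD rats.

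**Figure D3:**
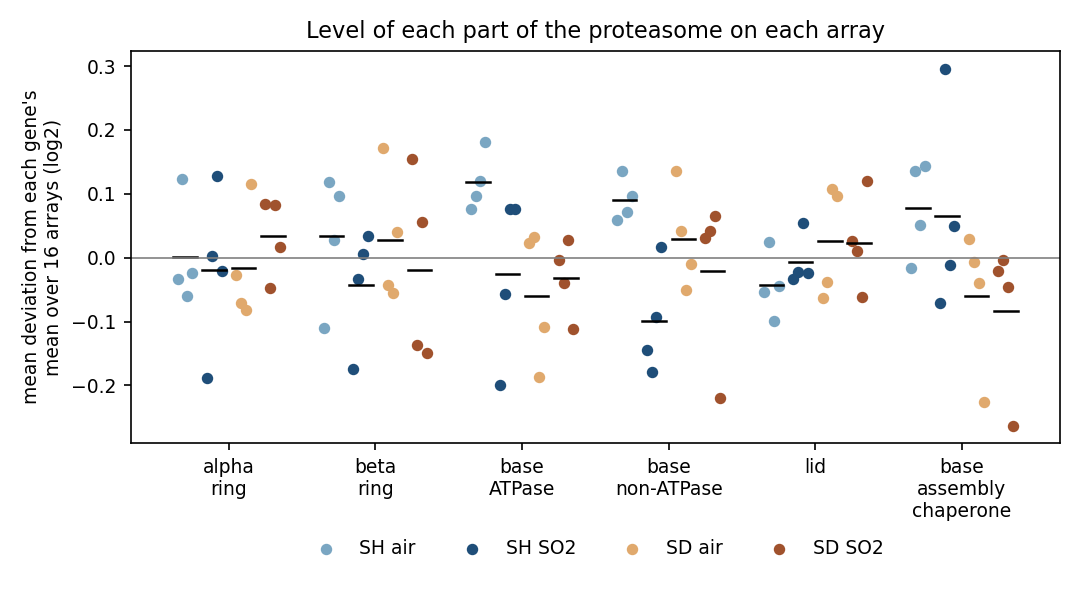
Mean log2 deviation of the genes of each part of the proteasome from their own means over the 16 arrays; each point is an array, colours give the group and bars are means of 4 arrays. The SH air arrays lie above 0 for both parts of the base, the SH SO2 arrays range from -0.20 to 0.077 for the base ATPases, and the other parts show no separation of groups.

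The strains were then compared without regard to a response. In air, limma called 0 of 32 members, with 0% of the array called. At an unadjusted p under 0.05 it gave 2 of 32 members, both higher in SH rats, against 709 probe sets or 6.38% of the array. The array labelled SD air replicate 2 bears on this comparison: without it limma called 86 probe sets of the array and again 0 members. Member intervals lay within 1.5-fold for 31 of 32, against 62.3% of the array, the exception being Psmc5. Psmc5 was 0.35 higher in SH rats (SE 0.115, adjusted p 0.448 in limma), and 0.39 without that array (adjusted p 0.238 in limma). Members whose groups did not overlap numbered 3, Psmc5 and Psmd9 higher in SH rats and Psmd8 lower, where 4.02% of the array did not overlap.

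All 5 base ATPases lay above 0 for SH against SD rats in air, from 0.056 to 0.35. The same SH air arrays entered the SO2 comparison in SH rats, where these 5 genes lay below 0, so the patterns are not independent. The genes also share each array and do not count as replicates. No background share is given here for 5 genes on 1 side of 0. Psmc1, another of these ATPases, read 1020, 824.3, 1110.5 and 1153.1 in SH air and 896.6, 837.4, 762.9 and 840.5 in SD air. It read 740.5, 1017.2, 1146.9 and 960.9 in SH SO2 and 888.8, 800.2, 856.4 and 855 in SD SO2. In each exposure 3 of the 4 SH arrays lay above all SD arrays and 1 lay among or below them. The strain difference was 0.29 in air (SE 0.132, adjusted p 0.76 in limma) and 0.22 averaged over exposures (SE 0.0936, adjusted p 0.328 in limma).

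Psmd8, a subunit of the lid, lay the other way in air. It read 717.9, 791.5, 823.8 and 803.3 in SH air and 849.1, 836.9, 1043.3 and 1028.2 in SD air. In SO2 it read 730.8, 824.9, 1032 and 819.5 in SH rats and 1009.5, 735.9, 791.4 and 1040.4 in SD rats. The groups did not overlap in air and overlapped in SO2. The difference in air was -0.25 (SE 0.136, adjusted p 0.811 in limma), -0.30 without the array labelled SD air replicate 2, and 0.027 in a fit with the title's number as an added term.

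In SO2, limma called 0 of 32 members while 0.81% of the array was called. At an unadjusted p under 0.05 there were 2 of 32 members higher and 2 lower in SH rats, against 1127 probe sets or 10.1% of the array. Intervals lay within 1.5-fold for 30 of 32, the exceptions being Psmd10 and the dimmer probe set of Psmd11, against 59.1% of the array. Groups did not overlap for 1 member, Psmd10, against 5.58% of the array. Psmd10 was 0.51 higher in SH rats (SE 0.16, adjusted p 0.188 in limma), and 0.30 without SH SO2 replicate 2. The dimmer probe set of Psmd11 was 0.38 higher (SE 0.122, adjusted p 0.196 in limma) and the brighter 0.16 higher (adjusted p 0.774 in limma). Psmc5 was -0.30 and Psma2 -0.26 in SH against SD rats (adjusted p 0.324 and 0.468 in limma).

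Averaged over exposures, limma called 0 of 32 members for SH against SD rats while 1.53% of the array was called. An unadjusted p under 0.05 was found for 3 of 32 members, all higher in SH rats, against 1292 probe sets or 11.6% of the array. All 32 intervals lay within 1.5-fold, against 83.4% of the array. Psmd10 had the smallest p, at 0.31 higher in SH rats (SE 0.113, adjusted p 0.245 in limma) and 0.20 without SH SO2 replicate 2. The dimmer probe set of Psmd11 was 0.22 higher (SE 0.0863, adjusted p 0.286 in limma), and Psmc1 came next. Psma6, of the alpha ring, came after these by p. It read 3433.6, 3574.1, 3497.9 and 3360.8 in SH air and 3114.1, 4224.5, 3921.8 and 3807 in SH SO2. It read 3322.1, 3351.4, 2828.8 and 3594 in SD air and 3579.9, 3304.6, 3266.2 and 2703.2 in SD SO2. The strains overlapped in both exposures, and the difference was 0.16 (SE 0.0784, adjusted p 0.457 in limma).

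The remaining named results moved little when the array labelled SD air replicate 2 was left out. Averaged over exposures, Psmd10 was then 0.32 higher in SH rats, Psmc1 0.23, Psma6 0.16 and the dimmer probe set of Psmd11 0.22, and in air Psmc1 was 0.29 higher. The difference between the strains' SO2 effects was then -0.40 for Psma2 and 0.38 for Psmd10, and the SO2 effect averaged over strains was -0.12 for Psmb4 and -0.17 for the dimmer probe set of Psmd11.

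The members were steady between replicates. Their SD within groups had a median of 0.171 on the log2 scale, against 0.247 over all probe sets tested, and lay below the overall median for 30 of 32. Members were also bright, with a median level at percentile 80.3, and brighter probe sets vary less: the 2777 brightest had a median SD of 0.19. The lowest spread was that of Psma4, at 0.0975, and the highest that of Psma1, at 0.313, where SH air replicate 2 read 1761.2 and the other SH air arrays 823.5 to 925.2.

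**Figure D4:**
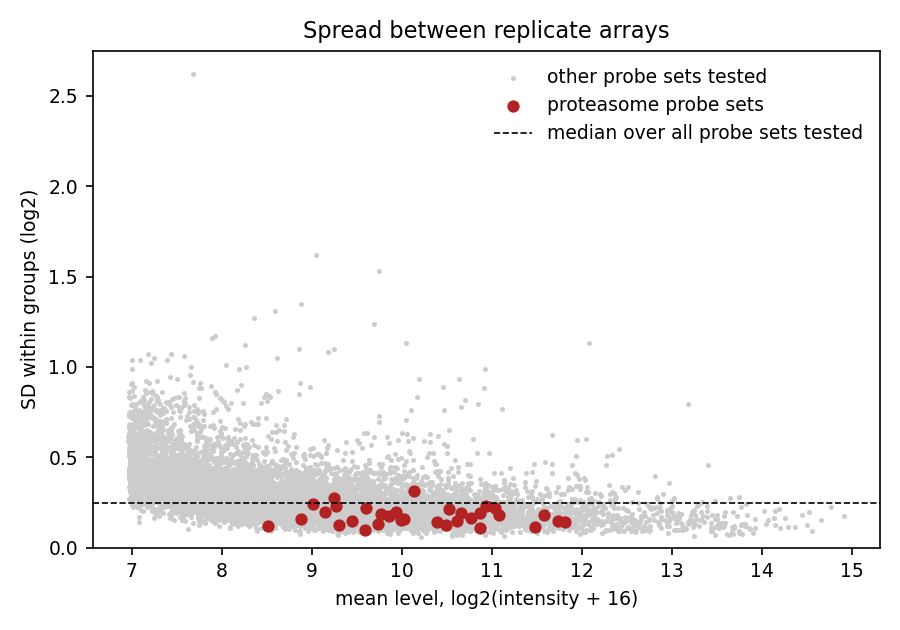
SD within groups (log2, vertical) against mean level, log2(intensity + 16), for all 11106 probe sets tested in grey and the 32 proteasome probe sets in red; the dashed line is the median SD over all probe sets, 0.247. The proteasome probe sets lie in the brighter range and 30 of 32 fall below the line.

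Within groups, most members moved with the others from array to array. After each group's mean was taken off, a member's correlation with the mean of the other members had a median of 0.344 over 16 arrays, positive for 28 of 32, while the median over all probe sets with the members' mean was 0.0113. Single pairs of members were less alike, with a median of 0.138 over 496 pairs. Psmb2 (0.833), Psma6 (0.68) and Psmb3 (0.633) were closest to the rest. Psmd7 (-0.462) and Psmd13 (-0.454), both of the lid, had negative correlations, and those of Psmd1 (-0.134) and Psma3 (-0.0761) were near 0. The points share their array, its scaling and its RNA quality, and these correlations are a description. The genes outside the members with the highest correlation with the members' mean were Slc35c1 (0.849), Erap1 (0.849), Ywhae (0.841), Chm (0.817), Prdx3 (0.811), Eif4a1 (0.807), Rtf1 (0.803), Wdr12 (0.785), Lrrc59 (0.779) and Aprt (0.779).

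The mean deviation of the 27 subunit genes on an array was 0.030 ± 0.0541 and -0.032 ± 0.0858 in air and SO2 in SH rats, and -0.00013 ± 0.045 and 0.0017 ± 0.0556 in SD rats (log2, SD, n = 4 each). The lowest array was SH SO2 replicate 1, at -0.147, where 24 of the 32 probe sets lay below their own mean; its actin ratio of 3.12 was the highest of all arrays. The highest was SH air replicate 2, at 0.0964, with 26 of 32 above. The part of RNA quality in these values was not tested beyond the fit with covariates given among the alternatives.

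Genes that act with the proteasome were described by lists of their own, in each of the 7 comparisons. Limma called none of the 5 inducible subunit and PA28 activator genes (Psmb8, Psmb9, Psmb10, Psme1 and Psme2), whose medians were -0.038 for SO2 in SH rats and 0.027 in SD rats. Of these, Psmb10 had the smallest p, at -0.20 for SH against SD rats averaged over exposures (SE 0.118, adjusted p 0.562 in limma). Limma also called none of 6 activators and binding factors, 9 assembly chaperones (among them Psmd5, Psmd9 and Psmd10), 8 regulators of proteasome genes, 14 genes of ubiquitin activation and conjugation, or 9 shuttle and p97 genes. Nfe2l1 differed by -0.023 and Nfe2l2 by -0.00089 for SO2 in SH rats, and by 0.11 and -0.019 in SD rats.

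The smallest p of each of these 5 lists did not pass. Adrm1, a ubiquitin receptor docked on the base, was -0.40 in SH against SD rats in SO2 (adjusted p 0.208 in limma). Sqstm1, the autophagy receptor p62, was 0.40 in the same comparison (adjusted p 0.189 in limma). Ddi2, the protease that activates Nrf1, was 0.35 for SO2 in SD rats (adjusted p 0.589 in limma). Ube2h, a ubiquitin-conjugating enzyme, was -0.20 for SO2 averaged over strains (adjusted p 0.534 in limma). Psmd10, given above, was the assembly chaperone with the smallest p.

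The TCP1 chaperonin, a barrel that folds new proteins such as actin and tubulin, held the 1 called gene of these lists. Cct6a, one of its subunits, was lower in SH than in SD rats in SO2 by a log2 difference of -0.997 (SE 0.16, adjusted p 0.00261 in limma), with means of 553.1 ± 69.4 and 1119 ± 132 (SD, n = 4 each). Averaged over exposures the difference was -0.75 (SE 0.113, adjusted p 0.00119 in limma). For SO2 against air, 7 of 8 chaperonin genes lay below 0 in SH rats (median -0.193) and 7 of 8 above 0 in SD rats (median 0.0901), and none was called. The median over the 32 proteasome probe sets was -0.056 in SH rats and 0.0061 in SD rats. By part, the medians of the subunit genes ranged between -0.198 and 0.0511 in SH rats and between -0.0935 and 0.0344 in SD rats. The value of -0.198 is that of the 3 non-ATPase genes of the base.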

How the data were processed

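The table deposited by the authors holds linear signal intensities, for 16 arrays of rat lung RNA in 4 groups of 4. The software GCOS is named per the submitters' processing notes; its version is not given in the sources used here. Detection calls were not used here. Of 15923 rows, 57 controls were left out. Values were taken as log2(intensity + 16), which understates differences of dim probe sets, and the dimmest 30% of probe sets by mean log2 value were removed, leaving 11106; all 32 members passed. The model was limma 3.58.1's (R 4.3.3; lmFit and eBayes, trend on), with 4 group means, 12 residual degrees of freedom, 7 comparisons and Benjamini-Hochberg adjustment over the 11106. Precision is limited by the number of arrays. The fit was also run on simulated arrays with added changes larger than any member difference given here. That run does not show how well smaller differences are found. The sample titles carry a running count over all arrays and no replicate number per group. The count ran from 40 to 43 for SH air, 44 to 53 for SH SO2, 45 to 55 for SD air and 47 to 50 for SD SO2. All SH air arrays thus came before all others, so differences from SH air cannot be fully told apart from title order. The labels do not state what the count stands for. A replicate number used in this text is an array's rank by title among the arrays sharing its group.

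The members and gene lists were chosen with earlier results of these data known. Every-array values are given for the 3 genes of smallest p in each comparison, a gene with several probe sets ranked by its brightest, and for the dimmer probe set of Psmd11, added after its values were seen; Psmb5, Psmb7 and Psmd4 were named whatever their values; other lists name their called genes or the gene of smallest p. All 32 symbols matched a RefSeq table by Entrez identifier, with 0 changed. Alternatives were other offsets, filters, normalizations, moderation, covariates, array weights, a replicate block, fits on the compared groups alone, and each array left out. Figures used matplotlib 3.10.9 in Python 3.11.15.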

Additional observations from a re-analysis of the deposited data

Results flagged for a closer look

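Single arrays stood apart from the other 3 of their group for 9 of 128 groups of member values, where about 1 in 20, or 6.4, would do so by chance. Psma1 read 1761.2 on SH air replicate 2, against 823.5 to 925.2 on the other SH air arrays. Psma3 read 563.6 on SD SO2 replicate 2, against 630.4 to 638.1. Psma5 read 1210.7 on SH SO2 replicate 1, against 1609.7 to 1659.7, and 1693.5 on SD air replicate 4, against 1489.6 to 1518.8. Psmb5 read 2775.9 on SH air replicate 1, against 3129.3 to 3206.7, and 3410.4 on SH SO2 replicate 4, against 2934.1 to 2986.6. Psmc3 read 1037.6 on SH air replicate 1, against 1099.3 to 1108.7. Psmd9 read 449.7 on SH air replicate 2, against 348.8 to 354.5, and 292.2 on SD SO2 replicate 4, against 355.6 to 367.7.

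The SO2 and air arrays of Psmc5 did not overlap in either strain and lay in opposite directions. The effect in SH rats less that in SD rats was -0.65 on the log2 scale, and it did not pass in limma (adjusted p 0.959).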

How the results depend on the processing

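Over the 30 alternative settings, which include each of the 16 arrays left out in turn, the number of members called by limma was 0 in 174 of 175 recomputed counts. The exception was the comparison of SH with SD rats averaged over exposures with 2 array quality measures as covariates, the actin ratio and the 10th percentile of signal, where 1 member was called: Psmc1, at 0.29 (adjusted p 0.0451 in limma). Of 623 recomputed values of the named members, 621 kept their direction and their side of the threshold. The difference of Psmd8 between strains in air turned to 0.027 when the title number entered the fit; the cause was not tested. With each array left out in turn, the number of members called stayed at 0 in every comparison.

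Replicate numbers follow title order only and name no pairing of the rats. Of 24 same-numbered pairs, 4 had deviations that correlated over 0.1 (range -0.433 to 0.151). These values cannot show whether rats or arrays were paired in some other way. With the replicate block, 0 members were called. Each replicate number occurs in every group, so the block cannot change a difference between groups, only its spread. The SO2 effect on Psmc5 in SH rats thus stayed at -0.44 by design, with an adjusted p of 0.975 in limma. Over the 22 alternative settings of that comparison, the effect on Psmc5 lay between -0.527 and -0.305. The count over the whole array moved more: 0 to 86 for SH against SD rats in air (86 without the array labelled SD air replicate 2), 50 to 139 in SO2, 56 with the title number to 276 without that array averaged over exposures, and 0 to 11 for SO2 averaged over strains. With 4 arrays per group, the interval of most members in 1 strain leaves room for differences of less than 1.5-fold.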

Other observations

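Of the 8 lists of cell markers, 2 held a gene called by limma. Car3, an adipocyte gene, was higher in SH than in SD rats in SO2 by 1.02 (SE 0.15, adjusted p 0.000975 in limma), with means of 587.3 ± 107 and 277.9 ± 19.6, while 336.1 ± 40.7 and 349.1 ± 50.3 were measured in air (SD, n = 4 each). Tcap, a muscle gene, was higher by 1.08 (SE 0.245, adjusted p 0.0407 in limma), with means of 548 ± 74.5 and 252.6 ± 44.5 in SO2. In this comparison 2 of the 3 adipocyte markers tested lay below 0, against the direction of Car3. Of the 7 muscle markers tested, 6 lay above 0 and 1 below.

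The 5 probe sets that shared the pattern of Psmc5, with SO2 and air arrays apart in opposite directions in the strains, were those of Stat3, Map4k4, Shisa9, Usp2 and Pxdc1, named after their values were seen. The SO2 effect in SH rats less that in SD rats was -1.01 for Stat3, -0.82 for Map4k4, -0.78 for Usp2, 1.18 for Shisa9 and 0.71 for Pxdc1. None passed in limma, with adjusted p between 0.447 and 0.981.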
